A study of Saccharomyces cerevisiae with 5 samples.

Results

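The genes described here are HSP26, HSP42, HSP30, BTN2, CUR1 and HSP104 of budding yeast, which hold, sort or dissolve aggregated proteins or act beside such proteins under stress. They were taken by name, and each had 1 probe set with its gene symbol in the platform annotation, so 6 probe sets of 9275 without controls are described. The names were chosen from earlier results of the same comparison of vts1 deletion and wild type arrays, so their differences are given as a description and no p is given for them. The data are signals of 3 Affymetrix arrays of a vts1 deletion in strain BMA64 and 2 arrays of BMA64 itself, the wild type. Vts1 binds mRNAs at small stem-loops and speeds up their decay, and the comparison asks which mRNA levels differ without it. Both strains grew at 30 degrees in SD, a defined medium with glucose, and were collected at an OD600 of 0.4, with no heat shock named in the labels. The same treatment entry, a chemical transfection naming VTS1, stands on all 5 samples, wild type included. Titles of deletion replicates 1 and 2 carry the names dvts1-1 and dvts1-2, and that of replicate 3 carries no such name. Whether these are separate clones or cultures is not stated, so the errors cover array-to-array spread that may be only technical.

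Small heat shock proteins bind unfolding proteins and keep them in a form that can be refolded. Hsp26 and Hsp42 are the cytosolic small heat shock proteins of yeast, and Hsp104 is a ring-shaped ATPase that pulls proteins out of aggregates together with Hsp70 and its partners. Btn2 and its paralog Cur1 sort misfolded proteins to deposits in the cell and can cure cells of the prion form of Ure2. Hsp30 shares the heat shock name but is a plasma membrane protein that restrains the proton pump Pma1. Transcription factors known to act on some of these genes are Hsf1, which responds to misfolded protein, and Msn2 with Msn4. The latter respond to many stresses and to falling nutrient signalling. HSP30 is not counted here as a target of any of them.

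The arrays had been scaled before deposit to nearly equal trimmed mean signals (2502.47 to 2502.68). Between 74.2% and 83.0% of probe sets lay above the background level, the 95th percentile of 28 control probe sets without a target in yeast RNA. VTS1 itself was at background in the deletion, with signals of 19, 17.8 and 55 against 4952.3 and 5079.9 in the wild type, at least 33.4-fold lower. All 6 genes described here passed the filter on dim probe sets (a mean of 250.3 over the 5 arrays), and 12 of their 12 group means did so too. Set against the background level of its own array, the lowest of their 30 values was one of HSP30, at 1.45 times that level. Signals of different probe sets cannot be set against each other, so each gene is compared only with itself.

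HSP26, HSP30 and BTN2 had less mRNA in the deletion strain, by between 3.69-fold and 5.96-fold, while HSP42 and HSP104 stood close to their wild type levels. CUR1 lay in between. A probe set counts as called where the p of limma's test, after Benjamini-Hochberg adjustment across the 6294 probe sets that were tested, is under 0.05. By that rule 3 of the 6 genes were called lower, beside 3.05% of all probe sets tested, and 0 were called higher, beside 4.39% (at an unadjusted p under 0.05, 4 were lower, beside 11.1% of all probe sets tested, and 0 higher, beside 10.3%). Nothing is read from these counts, since the genes were chosen on this contrast. The median log2 change of the 6 was -1.35, and that of all probe sets tested was -0.04.

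**Figure D1:**
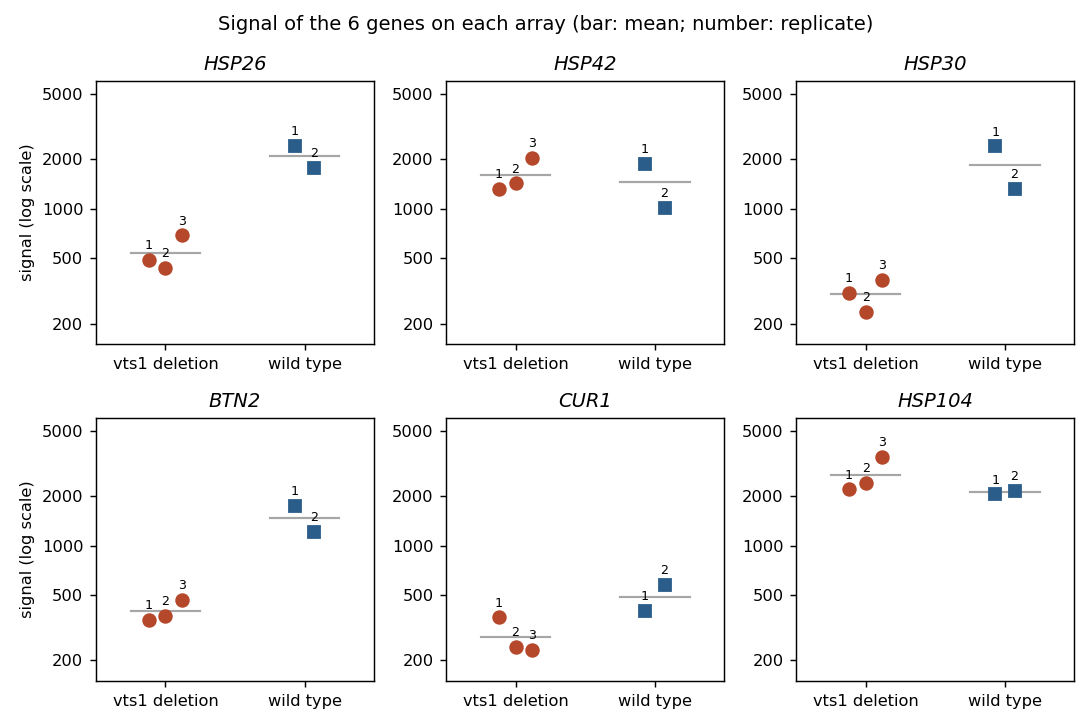
Signal on each array (log axis) of the 6 genes, with the 3 vts1 deletion arrays on the left (circles) and the 2 wild type arrays on the right (squares); numbers are replicates and grey bars are group means. For HSP26, HSP30 and BTN2 the highest deletion signals are 688.9, 367.7 and 464.1 and the lowest wild type signals 1782.2, 1323.3 and 1210.7, HSP42 overlaps between the groups, and HSP104 is highest on deletion replicate 3.

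Of the small heat shock proteins, Hsp26 is the one that switches to its binding form on warming. HSP26 (YBR072W) had signals of 487.1, 439.5 and 688.9 on the deletion arrays, against 2409.3 and 1782.2 on the wild type arrays. All 3 deletion arrays lay below both wild type arrays, with a 2.59-fold gap between the lowest wild type and the highest deletion signal. The means were 538.5 ± 132.4 in the deletion and 2096 ± 443 in the wild type (SD, n = 3 and 2), a log2 change of -1.97 ± 0.22 (SE), or 3.92-fold lower. This was the 11th lowest change among the 6294 probe sets tested (rank 11).

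HSP42 encodes the small heat shock protein that is also active in unstressed cells and helps gather misfolded proteins into cytosolic deposits. HSP42 (YDR171W) had signals of 1319.6, 1429.3 and 2054.1 on the deletion arrays, against 1880.8 and 1019.3 on the wild type arrays. The deletion values straddled the wild type values, so the groups overlapped. The log2 change was 0.18 ± 0.25 (SE, n = 3 and 2). Its wild type arrays differed by 1.85-fold between themselves, and the direction of the change turned with the wild type array left out: 0.62 without wild type replicate 1 and -0.26 without wild type replicate 2. The change was -0.01 without deletion replicate 3 and likewise with the replicate number as a block. These arrays give no direction for HSP42.

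HSP30 (YCR021C), the gene of the membrane protein that restrains Pma1, showed the widest difference of the 6. Its signals were 307.7, 235.7 and 367.7 on the deletion arrays, against 2399.6 and 1323.3 on the wild type arrays. The groups were apart by 3.60-fold at their nearest values, although the wild type arrays themselves differed by 1.81-fold. The means were 303.7 ± 66.1 in the deletion and 1861 ± 761 in the wild type (SD, n = 3 and 2), with a log2 change of -2.58 ± 0.28 (SE), or 5.96-fold lower. Only 6 probe sets of those tested had a lower change (rank 7).

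The sorting factors Btn2 and Cur1 are paralogs, and their mRNAs had log2 changes of -1.88 and -0.81, a gap that was not tested. BTN2 (YGR142W) had signals of 353.2, 373.7 and 464.1 on the deletion arrays, against 1744.9 and 1210.7 on the wild type arrays. The groups did not overlap, with means of 397.0 ± 59.0 in the deletion and 1478 ± 378 in the wild type (SD, n = 3 and 2) and a log2 change of -1.88 ± 0.22 (SE), or 3.69-fold lower. It ranked next to HSP26 from the lowest change (rank 12).

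CUR1 (YPR158W) had signals of 365.2, 242.7 and 230.5 on the deletion arrays, against 398.1 and 576.8 on the wild type arrays. The groups did not overlap, but deletion replicate 1 and wild type replicate 1 were only 1.09-fold apart. The log2 change was -0.81 ± 0.30 (SE, n = 3 and 2), the largest SE of the 6, and its mean signal over the 5 arrays, 362.7, was the nearest of the 6 to the filter. It had no call here or under any of the 14 alternatives that tested it, over which its change ran between -1.08 and -0.54. A stricter filter on dim probe sets left it out. Whether BTN2 and CUR1 differ in their change was not tested.

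HSP104 (YLL026W), the gene of the disaggregase, had signals of 2195.4, 2401.8 and 3456.9 on the deletion arrays, against 2048.3 and 2160.0 on the wild type arrays. All deletion values lay above both wild type values, by 1.02-fold at the nearest pair, and deletion replicate 3 stood apart from the other deletion arrays. The log2 change was 0.32 ± 0.18 (SE, n = 3 and 2), with no call, and 0.13 without deletion replicate 3. Counted by arrays alone, 4 of the 6 genes had every deletion array below every wild type array, beside 21.7% of all probe sets tested, 1 had every deletion array above, beside 16.8%, and 1 overlapped.

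**Figure D2:**
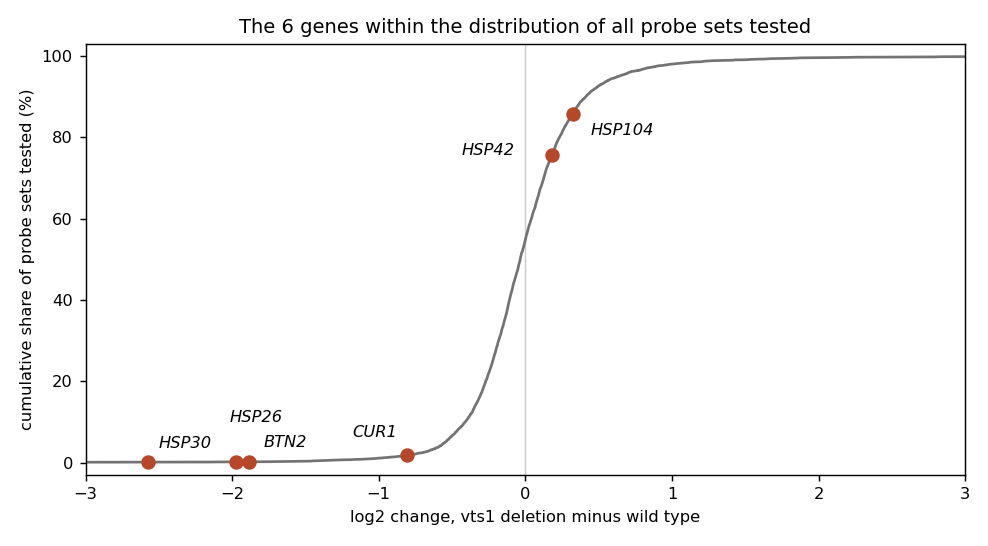
Cumulative share of all 6294 probe sets tested (y axis, percent) against the log2 change, deletion minus wild type (x axis), with the 6 genes marked; the axis leaves out 14 probe sets with changes beyond 3 either way. HSP30, HSP26 and BTN2 sit at the lower end (ranks 7, 11 and 12), CUR1 at rank 111, and HSP42 and HSP104 on the steep upper part of the curve.

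The genes were also compared from array to array within each group. Deletion replicate 3 had the highest of the 3 deletion signals for 5 of the 6 genes, all but CUR1, beside 42.2% of all probe sets tested. On the log2 scale it exceeded the mean of the other deletion arrays by 0.57 for HSP26, 0.58 for HSP42 and 0.59 for HSP104, by 0.45 for HSP30 and by 0.35 for BTN2, while CUR1 stood at -0.37. Over all probe sets tested the central 90% of this difference ran between -0.35 and 0.52, with HSP30 and BTN2 inside it. The difference was above 0 for 5 of the 6 genes, beside 59.3% of all probe sets tested. Wild type replicate 1 exceeded replicate 2 by 0.88 for HSP42, 0.86 for HSP30, 0.53 for BTN2 and 0.43 for HSP26, with -0.08 for HSP104 and -0.53 for CUR1, where the central 90% of all probe sets lay between -0.49 and 0.64. HSP42 and HSP30 lay above that range and CUR1 below it. Wild type replicate 1 was above replicate 2 for 4 of the 6, beside 47.6% of all probe sets tested. Deletion replicate 1 was above deletion replicate 2 for 3 of the 6, beside 48.6%. These counts are not read as a result about the 6 genes. What sets these arrays apart was not tested.

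Likeness of pattern was measured as the Euclidean distance between the 5 log2 signals of 2 probe sets, each taken relative to its wild type mean. HSP26 and BTN2 were nearest to each other among all single-gene probe sets (distance 0.30). ADH4, an alcohol dehydrogenase, and SSA3, a stress-induced Hsp70, came next for HSP26 (0.62 and 0.72), and SSA3 and the wall mannoprotein gene TIR1 came next for BTN2 (0.63 and 0.65). The nearest to HSP30 were YOL014W, ADH4 and HSP26, at larger distances of 1.05, 1.06 and 1.11. HSP42 and HSP104 were 0.72 apart from each other and between 3.59 and 5.08 from HSP26, HSP30 and BTN2. The nearest to HSP42 were RGL1, RGP1 and ASI3 (0.15, 0.16 and 0.23), and the nearest to HSP104 were CMK1, ATG2 and YPR063C (0.09, 0.12 and 0.13). CUR1 lay nearest to PPN2, UTP20 and FAS1 (0.37, 0.40 and 0.41), with BTN2 at 2.14. Distances over 5 arrays are a description, and with changes near 0 many genes lie close together.

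The partners with which Hsp104 dissolves aggregates are the cytosolic Hsp70s, their J-proteins and their exchange factors. In the counts of gene lists, 1 probe set stands for each gene, and of the 4950 genes so tested 2.75% were called lower and 4.97% higher. At an unadjusted p under 0.05, the counts given in parentheses for each list, the shares of all genes were 10.6% lower and 10.7% higher. The lists were written from textbook knowledge with earlier results of these data known, so they are no independent evidence of a direction. Of 11 partners tested, 2 fell and 0 rose (3 and 1 at an unadjusted p under 0.05), with a median log2 change of -0.12, beside -0.03 for all genes.

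SSA3, the Hsp70 gene that is hardly used in growing cells, was the partner with the largest decrease. Its signals were 238, 247.1 and 417.2 on the deletion arrays, against 1186.1 and 662.7 on the wild type arrays. The groups did not overlap, and like HSP26, BTN2 and HSP30 it was highest on deletion replicate 3 and on wild type replicate 1. The log2 change was -1.61 ± 0.32 (SE, n = 3 and 2, limma adjusted p = 0.00776), a call lost without wild type replicate 1. FES1, a nucleotide exchange factor of Hsp70, fell by 0.55 on the log2 scale (SE 0.12, limma adjusted p = 0.0108), with signals of 9326.1, 8694.8 and 8271.1 against 12576.3 and 13093.8 in the wild type. Leaving out deletion replicate 2, deletion replicate 3 or wild type replicate 2 ended that call.

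The abundant Hsp70 genes and the main J-proteins had no call. The log2 change was 0.20 ± 0.13 for SSA1 and -0.08 ± 0.13 for SSA2, 2 near-identical genes whose probe sets may not separate them. SIS1, the J-protein that works with the sorting factors, had -0.10 ± 0.12, and YDJ1, the most abundant cytosolic J-protein, had -0.33 ± 0.12. SSE2, an Hsp110 exchange factor, had 0.61 ± 0.18 (limma adjusted p = 0.0621) and was called higher under 5 of 15 alternatives. Apart from SSA3 the partners had log2 changes between -0.55 and 0.61.

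Of 9 genes of the Hsp90 system tested, 2 fell and 0 rose (3 and 1 at an unadjusted p under 0.05), with a median log2 change of -0.22. These were HCH1, an activator of Hsp90, and STI1, which links Hsp70 to Hsp90, with log2 changes of -0.58 ± 0.15 and -0.44 ± 0.11 (SE, limma adjusted p = 0.0322 and 0.0351). The call of HCH1 was lost without any 1 of the 5 arrays, and that of STI1 without any 1 but deletion replicate 1. Of 7 mitochondrial chaperone genes tested, MDJ1, a J-protein of mitochondrial Hsp70, fell, with a log2 change of -0.77 ± 0.15 (limma adjusted p = 0.00639), and 0 rose (1 and 1 at an unadjusted p under 0.05). HSP78, the mitochondrial relative of HSP104, had 0.44 ± 0.20 (limma adjusted p = 0.224).

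The Hsf1 target list, which overlaps the lists above and leaves out the 6 genes, held 15 tested genes. Of these, 4 fell, namely FES1, HCH1, MDJ1 and STI1, and 0 rose (6 and 1 at an unadjusted p under 0.05). Their median log2 change was -0.26, and the lowest was that of MDJ1. HSP42, HSP104, BTN2 and CUR1 are also known Hsf1 targets, and their changes ran between -1.88 for BTN2 and 0.32 for HSP104. Both groups are selections, so these values hold only for the genes in them. HSP26, SSA3 and SSA4, with changes of -1.97, -1.61 and -0.27, were placed in neither group, nor was SSE2, at 0.61. Their absence does not mean that Hsf1 leaves these genes alone. A list with HSP26 and SSA3 would reach lower than MDJ1.

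HSP30 has 2 paralogs in yeast, MRH1 and YRO2, which encode membrane proteins of the same family. YRO2 rose, with signals of 933.4, 1145.2 and 1394.9 on the deletion arrays, against 296.6 and 331.2 on the wild type arrays. The groups did not overlap, and the log2 change was 1.87 ± 0.21 (SE, n = 3 and 2, limma adjusted p = 0.000155), opposite in sign to that of HSP30. MRH1 had signals of 34602.5, 31781.4 and 29663.7 in the deletion and 25545.2 and 30562.7 in the wild type, and its log2 change was 0.19 ± 0.13 (limma adjusted p = 0.418).

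The listed general stress genes under Msn2 and Msn4 were higher in the deletion. Of the 20 in the list, 4 (CTT1, ALD3, GPH1 and RTN2) passed the filter only through the deletion arrays and are not counted. The other 16 were called higher, beside 4.97% of all genes, with a median log2 change of 1.89. At an unadjusted p under 0.05 these 16 were higher as well, beside 10.7% of all genes. Since the list was written with earlier results known, nothing is read from this count. With dim probe sets kept in the fit, 6 of the 20 were called higher. HSP12, a small stress protein of membranes, had signals of 60470.5, 62829.5 and 63627.9 on the deletion arrays, against 6874.8 and 5680.1 on the wild type arrays. Its log2 change was 3.32 ± 0.12 (SE, n = 3 and 2, limma adjusted p = 4.19e-09). Of the others with the smallest p, YGP1, a secreted glycoprotein, had 2.80 ± 0.12, HXK1, a hexokinase, had 2.81 ± 0.13, and SOL4, of the pentose phosphate pathway, had 3.90 ± 0.20. The list is a selection, so it does not show how all genes under Msn2 and Msn4 changed. HSP26 and HSP104, for example, are known to respond to Msn2 and Msn4 as well but are not in the list. HSP26 was called lower here, and HSP104 had no call.

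Deletion replicate 3 was the highest deletion array for all 16 listed genes counted above, as for 5 of the 6 described here, beside 42.2% of all probe sets tested. Nothing is read from these counts, since the genes were chosen with earlier results known. Leaving out deletion replicate 3 gave log2 changes of -2.16 for HSP26 and -2.73 for HSP30, and that of BTN2 was also below its value with all arrays. Nothing is read from this direction, since leaving out the highest deletion array must lower the change. The part of deletion replicate 3 in the within-group spread was not tested.

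**Figure D3:**
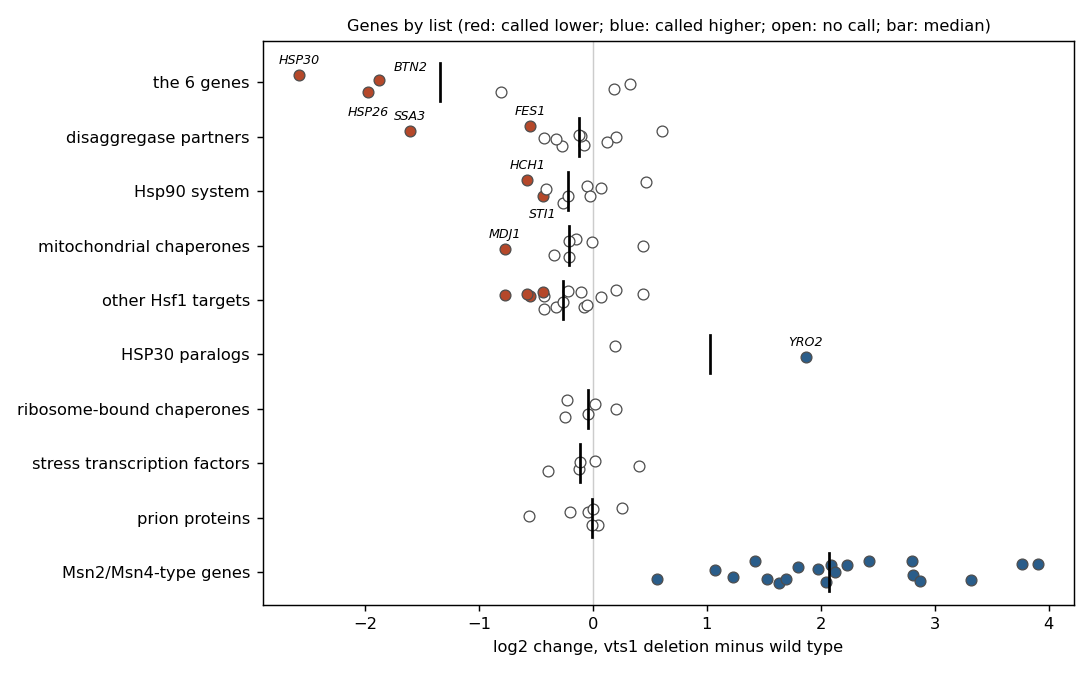
Log2 change, deletion minus wild type (x axis), of each gene tested, by list (rows); red points were called lower, blue points called higher, open points had no call, and black bars are medians. HSP30, HSP26, BTN2 and SSA3 lie below -1.5, and most other chaperone genes lie within 0.8 of 0. All 20 genes of the Msn2 and Msn4 list are drawn, above 0.5. That row and its median bar (2.07) include CTT1, ALD3, GPH1 and RTN2, which passed the filter only through the deletion arrays.

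The mRNAs of the regulators themselves had no call. HSF1 had a log2 change of -0.12 ± 0.16, MSN2 one of -0.11 ± 0.14 and MSN4 one of 0.41 ± 0.18 (limma adjusted p = 0.708, 0.695 and 0.209). SKN7 and YAP1, which respond to oxidative stress, had 0.02 ± 0.13 and -0.40 ± 0.17 (limma adjusted p = 0.946 and 0.201). At an unadjusted p under 0.05, 1 of these 5 was lower and 1 higher, beside 10.6% and 10.7% of all genes.

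The tested genes of prion proteins, on which this machinery is known to act, had no call. Of 7 prion protein genes tested, 0 were called by limma (0 at an unadjusted p under 0.05), with a median log2 change of -0.01. URE2, whose prion form Btn2 and Cur1 can cure, had -0.20 ± 0.13, and SUP35, whose prion form depends on Hsp104, had 0.05 ± 0.17. Of 5 ribosome-bound chaperone genes tested, 0 were called by limma (0 at an unadjusted p under 0.05), with a median of -0.04. Of all genes tested, 2.75% were called lower and 4.97% higher (10.6% and 10.7% at an unadjusted p under 0.05). Next to these shares, the counts of 0 are not read as a result about either list. Of the HSP31 family only HSP31 had a probe set of its own, with a log2 change of 0.33 ± 0.25, and the probe set shared by HSP32, HSP33 and SNO4 was too dim to be tested.

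**Figure D4:**
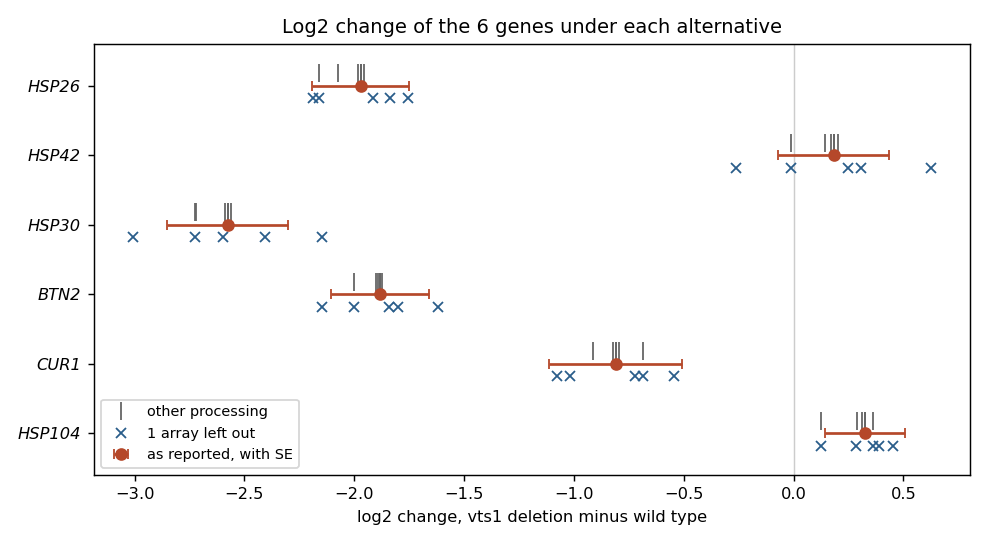
Log2 change, deletion minus wild type (x axis), of the 6 genes (rows) as reported with its SE (circle), with 1 array left out (crosses) and under other processing (ticks). HSP30, HSP26 and BTN2 stay below -1.5 and CUR1 below -0.5 throughout, HSP104 stays above 0, and HSP42 falls on both sides of 0.

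Over the 15 alternatives, which refit the same 5 arrays or fewer on which the genes were chosen, the log2 changes ran between -2.19 and -1.75 for HSP26, between -3.01 and -2.15 for HSP30 and between -2.15 and -1.62 for BTN2. With dim probe sets kept in the fit, 0 of the 6 were called by limma (3 lower and 0 higher at an unadjusted p under 0.05), with the same log2 changes. The calls of SSA3, FES1, HCH1, STI1 and YRO2 ended in that fit as well, and those of FES1, HCH1 and STI1 also ended without a variance trend and with the replicate block. That of MDJ1 held under all 15 alternatives, though in the weakest of them it passed the threshold only just.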

How the data were processed

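Per the labels, total RNA of 3 vts1 deletion and 2 wild type samples was labelled with biotin. The deposited table holds linear intensity values, 1 signal per probe set and array. MAS5 is named in the submitters' processing notes; neither version nor scaling target was given in the sources used here. The equal trimmed means show that the arrays had been scaled before deposit, so a change in total mRNA per cell would not be seen.

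Gene names came from the platform annotation, matched by gene identifier to the RefSeq gene table of assembly R64 (all 6504 single-gene probe sets matched; 328 probe sets had several genes and 2443 none). After leaving out 60 controls, signals were raised to a floor of 50.1 (trimmed mean divided by 50), log2 was taken, and the 6294 probe sets with a mean of at least 250.3 (trimmed mean divided by 10) were fitted across all genes with limma 3.58.1 in R 4.3.3 (lmFit, eBayes with trend, group as the only term). P-values are two-sided and adjusted by Benjamini and Hochberg. With 3 and 2 arrays, their number limits the precision. Fold bounds set a group at background to the background level of each array.

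The members and gene lists were chosen with earlier results of these data known. The genes named are the 6 members, VTS1, up to 4 called genes of each list by smallest p, all HSP30 paralogs and stress transcription factors, and the 3 nearest patterns of each member. SSA1, SSA2, SIS1, YDJ1, SSE2, HSP78, URE2, SUP35, HSP31, ALD3, CTT1, GPH1, RTN2 and CYC8 were added after their values were seen. A planned comparison of promoter and protein sequences was not run, and no sequence is printed. The alternatives were other normalizations, floors, filters and variance models, array weights, plain probe sets alone, a replicate block and each array left out.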

Additional observations from a re-analysis of the deposited data

How the results depend on the processing

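Of the 6 genes, the number called lower was 3 as reported and 0 with dim probe sets kept in the fit. Its other values say nothing of stability, since the genes were chosen on these arrays. Over all probe sets, the 192 lower and 276 higher calls became 51 and 54 with dim probe sets kept, and 69 and 149 with the replicate block. Without a variance trend 106 were lower. With 1 array left out in turn, between 95 and 165 were lower and between 175 and 318 higher. The cause was not tested, although the fits with an array left out have fewer samples. The replicate numbers were not shown to pair the arrays: deviations from the group means correlated at r = -0.07 for number 1 and -0.07 for number 2 across probe sets, which are not independent. Of the list genes, MDJ1 was called lower under 15 of 15 alternatives, SSA3 under 12 of 14, FES1 under 9 of 15, and STI1 and HCH1 under 7 of 15 each. In its weakest fit MDJ1 passed the threshold only just. YRO2 was called higher under 14 of 15. CYC8 was called higher without wild type replicate 1. Of the 20 genes of the Msn2 and Msn4 list, 6 were called higher without the filter and 4 had a wild type mean under it. CUR1 had the largest SE of the 6 and the mean signal nearest the filter.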

Other observations

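The 6 genes lie on 6 different chromosomes, and none of their tested direct neighbours had a call. Of the 12 protein-coding neighbours in the RefSeq gene table of assembly R64, 6 had a tested single-gene probe set and 0 of these were called by limma (0 at an unadjusted p under 0.05). Of all genes tested, 2.75% were called lower and 4.97% higher (10.6% and 10.7% at an unadjusted p under 0.05). Next to these shares, 0 of 6 is not read as a result about the neighbours. Beside BTN2, VPS62 had a log2 change of 0.25 ± 0.23 and SKN1, a glucan synthesis gene, one of 0.13 ± 0.18 (SE, n = 3 and 2). Beside HSP26, YBR071W had -0.09 ± 0.18, and beside HSP42, SUP35 had 0.05 ± 0.17. ISA1 and PAU17, the neighbours of HSP104, had -0.24 ± 0.14 and -0.46 ± 0.25. Of the neighbours of HSP30 and CUR1, HTL1 and TDA6 were too dim to be tested, and the others had no single-gene probe set. These genes were chosen by position after the values of the 6 genes were known.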
